A study of Homo sapiens with 3 samples.

Results

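The comparison described here set H2373 cells treated with Hoechst 33342 (H342) against untreated H2373 cells across all genes. H2373 is an established line derived from malignant pleural mesothelioma. H342 was given at 36 µM for 3 h, and how long the untreated cells were kept beside them is not given in the sources used here. Another array held cells given 36 µM Hoechst 33258 (H258) for 3 h, an analog that carries a hydroxyl group on the terminal phenyl ring where H342 carries an ethoxy group. Each condition was measured on 1 Illumina BeadChip array, so the data hold no replicate error and no test of any gene. A difference is reported below as a size only, and differences between conditions cannot be told apart from differences between single arrays. A gene entered the comparison when its brightest probe had a detection p under 0.05 against the negative control beads on at least 1 of the 2 arrays. This gave 10581 genes of 18851 with a probe, and 10779 genes were detected on at least 1 of the 3 arrays. Of the 10581 genes, 9460 were detected on both arrays, 360 under H342 only and 761 in untreated cells only. Signals are bead averages with no background subtracted. Log2 differences (H342 minus untreated) are after background correction and quantile normalization, and a gene was called higher or lower at a difference of at least 2-fold.

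The Hoechst dyes bind the minor groove of DNA and prefer runs of A and T, such as AATT, which is why they serve as stains of nuclei. H342 is the more lipophilic of the pair and enters living cells readily. Groove binders can hinder topoisomerases and DNA-binding proteins that read A/T-rich sites. Messenger RNAs turn over at very different rates, and a short treatment is best seen in the short-lived ones. Immediate-early genes, feedback inhibitors of growth factor signaling and many transcription factors belong to this class.

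Most genes changed little under H342. The median log2 difference was 0.03, 82.2% of the genes lay within 1.5-fold, and the central 90% of genes lay between -0.84 and 0.69. Of the 10581 genes, 132 (1.25%) were called higher and 382 (3.61%) were called lower, so 25.7% of the calls were higher. The shares of 1.25% and 3.61% are the background for the counts of every list below. The share of calls that were higher depended on the version of the data. It was 27% among genes detected on both arrays and 26.7% with an undetected side set to the lowest detected level. Without background correction 26 genes were higher and 146 lower (15.1% of calls higher), and in the deposited value table only 23 were higher and 140 lower (14.1%). Of the genes called lower, 50 reached 4-fold and 10 reached 8-fold, against 7 and 0 of those called higher. The robust SD of the log2 differences was 0.547 in the dimmest of 4 equal classes of genes and 0.265 in the brightest. Called genes were therefore read with their signals: those called lower had a median signal of 217.5 under H342 and 442.4 in untreated cells, and those called higher 318.2 under H342 and 196.1 in untreated cells, while the lowest detected signals were 156.5 under H342 and 155.5 in untreated cells. There were 23 genes called higher and 134 called lower that reached 2-fold again both without background correction and in the value table, and these are called stable below. With an undetected side set to the lowest detected level, 124 genes were higher and 341 lower, and among genes detected on both arrays 109 were higher and 295 lower. Of the genes called lower with at least 2 detected probes, all probes lay below 0 for 71 of 81 and all reached 2-fold for 37. Of the genes called higher, all probes lay above 0 for 14 of 20 and all reached 2-fold for 4. Over all 2714 genes with at least 2 detected probes, the probes of a gene shared their sign for 62.9%.

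**Figure D1:**
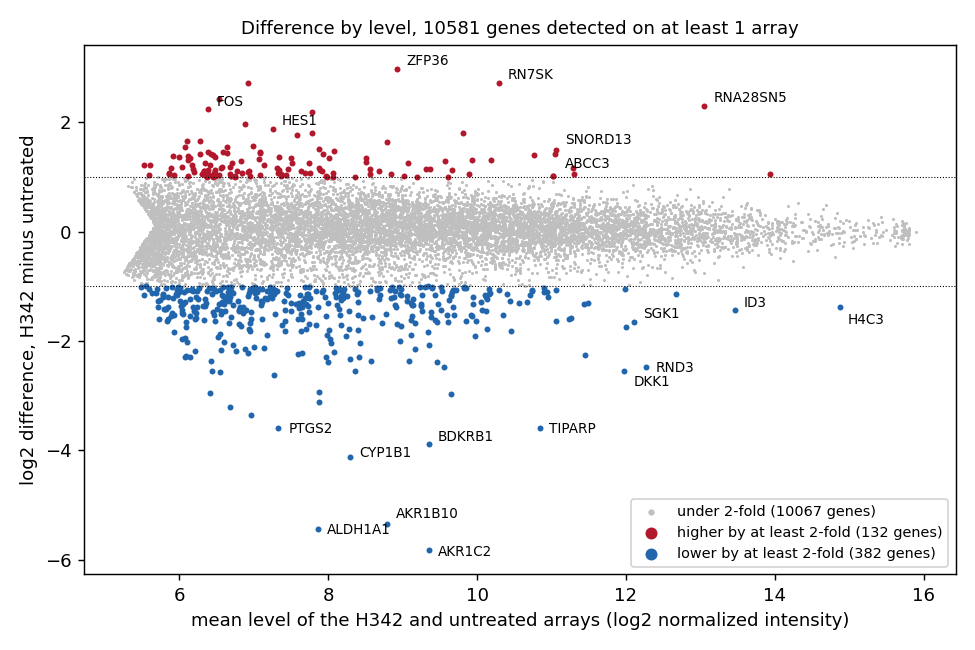
Log2 difference (H342 minus untreated, vertical axis) of each of 10581 genes against its mean log2 normalized intensity on the 2 arrays (horizontal axis), with dotted lines at 2-fold. The 382 genes called lower reach down to AKR1C2 at -5.83, whereas the highest of the 132 genes called higher is ZFP36 at 2.98.

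Mesothelial markers were detected in part, as were some markers of fibroblasts, leukocytes and endothelial cells. Of 16 mesothelial markers with a probe, 11 were tested. The intermediate filament gene VIM had a signal of 55610 under H342 and 55460 in untreated cells, the N-cadherin gene CDH2 had 16584 and 16674 in the same order, and the mesothelin gene MSLN had 2575 and 1533. UPK3B, PDPN, KRT5, DES and LRRN4 were not detected on either array. Of 7 lung epithelial markers only EPCAM was tested, near background. Of 7 fibroblast markers 4 were tested, and all lay above 0 within 2-fold. PDGFRB, a growth factor receptor, was the brightest under H342, with 1670 there and 1175 in untreated cells. Of 6 leukocyte markers 3 were tested, of which the lysosomal CD68 had 3104 under H342 and 2733 in untreated cells while CD14 and LYZ were dim, and PTPRC, which defines leukocytes, was not detected. Of 6 endothelial markers PECAM1, TIE1 and ERG were tested, none above 209 under H342 or 243 in untreated cells, and CDH5 and VWF were not detected. None of the markers of these cell types was called, and none of 13 control genes such as GAPDH and ACTB reached 2-fold.

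ZFP36, which binds AU-rich elements of messenger RNAs and hastens their decay, stood furthest above untreated cells. Its signal was 1425 under H342 and 292 in untreated cells, a log2 difference of 2.98, and under H258 it was 327. FOS, a partner of JUN in the AP-1 factor, had a signal of 285 under H342 and 136 in untreated cells, where it was not detected, and its log2 difference against the lowest detected level was 1.89, and 1.24 in the deposited value table. Sizes set against the lowest detected level in this way are after background correction and are larger than those of the uncorrected signals, so the table's value is given beside each. HES1, a transcriptional repressor downstream of Notch receptors, had 393 under H342 and 194 in untreated cells. RASD1, a small GTPase of the Ras family that steroid hormones induce, had 318 under H342 and was not detected in untreated cells. All of these are short genes of the induced class, and none of them stood as high under H258.

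The upstream sequences of such genes are shown because the dyes bind A/T-rich DNA. The 250 bases before the RefSeq transcription start (GRCh38.p14) are printed 5′ to 3′ along the gene's strand, with every AATT in capitals. AATT reads the same on both strands. The first 3 belong to genes far lower under H342, described further below, and the last 3 to genes called higher.
AKR1C2, chr10:5003858-5004107, minus strand: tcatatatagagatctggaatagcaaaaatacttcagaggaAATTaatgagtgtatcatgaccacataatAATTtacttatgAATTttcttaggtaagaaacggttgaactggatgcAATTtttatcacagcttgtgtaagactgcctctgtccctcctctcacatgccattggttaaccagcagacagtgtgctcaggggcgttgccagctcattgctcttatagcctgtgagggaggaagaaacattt
ALDH1A1, chr9:72953054-72953303, minus strand: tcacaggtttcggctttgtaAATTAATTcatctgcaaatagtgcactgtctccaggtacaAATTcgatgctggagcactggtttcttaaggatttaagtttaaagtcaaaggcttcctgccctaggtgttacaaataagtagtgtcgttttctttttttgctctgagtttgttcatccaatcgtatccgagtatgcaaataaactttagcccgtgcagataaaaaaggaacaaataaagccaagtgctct
PTGS2, chr1:186680424-186680673, minus strand: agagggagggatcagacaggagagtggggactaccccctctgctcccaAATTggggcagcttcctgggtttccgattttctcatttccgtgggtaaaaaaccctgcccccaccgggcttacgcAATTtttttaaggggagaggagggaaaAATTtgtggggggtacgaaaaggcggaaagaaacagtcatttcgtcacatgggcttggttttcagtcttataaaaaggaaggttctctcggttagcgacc
ZFP36, chr19:39406597-39406846, plus strand: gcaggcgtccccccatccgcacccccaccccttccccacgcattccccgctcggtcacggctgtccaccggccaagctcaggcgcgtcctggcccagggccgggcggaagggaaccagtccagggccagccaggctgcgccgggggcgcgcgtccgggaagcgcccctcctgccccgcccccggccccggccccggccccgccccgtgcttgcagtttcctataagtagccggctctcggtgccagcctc
FOS, chr14:75278578-75278827, plus strand: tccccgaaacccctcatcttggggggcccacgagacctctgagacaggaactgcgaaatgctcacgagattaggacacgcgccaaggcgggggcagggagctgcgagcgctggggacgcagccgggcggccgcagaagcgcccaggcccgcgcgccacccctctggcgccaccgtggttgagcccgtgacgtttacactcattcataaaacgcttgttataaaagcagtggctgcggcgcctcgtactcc
HES1, chr3:194135898-194136147, plus strand: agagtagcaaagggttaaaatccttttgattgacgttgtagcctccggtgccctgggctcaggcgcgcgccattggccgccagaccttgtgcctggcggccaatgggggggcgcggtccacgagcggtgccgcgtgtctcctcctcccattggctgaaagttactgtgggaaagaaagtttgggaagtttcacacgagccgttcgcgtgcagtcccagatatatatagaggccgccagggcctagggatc
AATT occurred 4 times upstream of AKR1C2, 3 times upstream of ALDH1A1 and 3 times upstream of PTGS2, and 0 times upstream of ZFP36, FOS and HES1. These 6 genes were picked to show the contrast. Over all genes with an entry in the promoter table, 19% of 105 called higher and 40.3% of 303 called lower had an AATT in this window, against 31.1% of all 8723 tested genes and 43.7% of all 27305 promoters. The median A/T share was 31.6% for genes called higher, 37.6% for genes called lower and 35.2% for all tested genes. For the stable genes AATT was found upstream of 18.8% of 16 higher and 36.2% of 105 lower. In the lowest of 5 classes by A/T share, 1.62% were called higher and 2.29% lower, and in the highest 0.699% were called higher and 4.6% lower. The highest class was also the dimmest, with a median untreated signal of 455 against 550 in the lowest. Gene families and levels differ between the classes, and their part in these shares was not tested.

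The letters TATAAA, searched on both strands, also stood upstream of a larger share of called genes than of tested genes. They were found for 9.52% of the genes called higher (10 of 105) and 10.2% of those called lower (31 of 303), against 5.73% of tested genes and 11.1% of all promoters. Among the stable calls the shares were 25% of 16 higher and 10.5% of 105 lower. GCGTG, the core that the aryl hydrocarbon receptor binds, stood upstream of 38.1% of the genes called higher and 45.9% of those called lower, against 45.8% of tested genes and 31.9% of all promoters. TGACNNNGC, the core of the antioxidant response element, was found for 13.3% and 11.2% of the genes called higher and lower, against 12.4% of tested genes and 11% of all promoters. The CArG box of serum response factor (CC, 6 letters that are A or T, GG) was found for 0 of 105 genes called higher and 8 of 303 called lower, that is 2.64%, against 0.963% of tested genes and 1.14% of all promoters. A match describes letters in this window only.

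Genes called under H342 were shorter than the rest. The median genomic span was 13960 bases for genes called higher and 18718 bases for genes called lower, against 28660 bases for all tested genes. Among genes that span up to 5 kb, 3.08% were called higher and 5.05% lower, and among genes over 100 kb 0.327% were called higher and 2.18% lower. The H258 array ran the other way for lower calls. Over the same 10581 genes, 0.69% passed 2-fold upwards and 3.34% downwards under H258 against untreated cells, and the share lower was 0.684% of genes up to 5 kb and 5.4% of genes over 100 kb. Long genes were also dimmer, with a median untreated signal of 406 over 100 kb and 568 up to 5 kb, and the part of signal level in these shares was not tested. Both comparisons share the single untreated array.

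**Figure D2:**
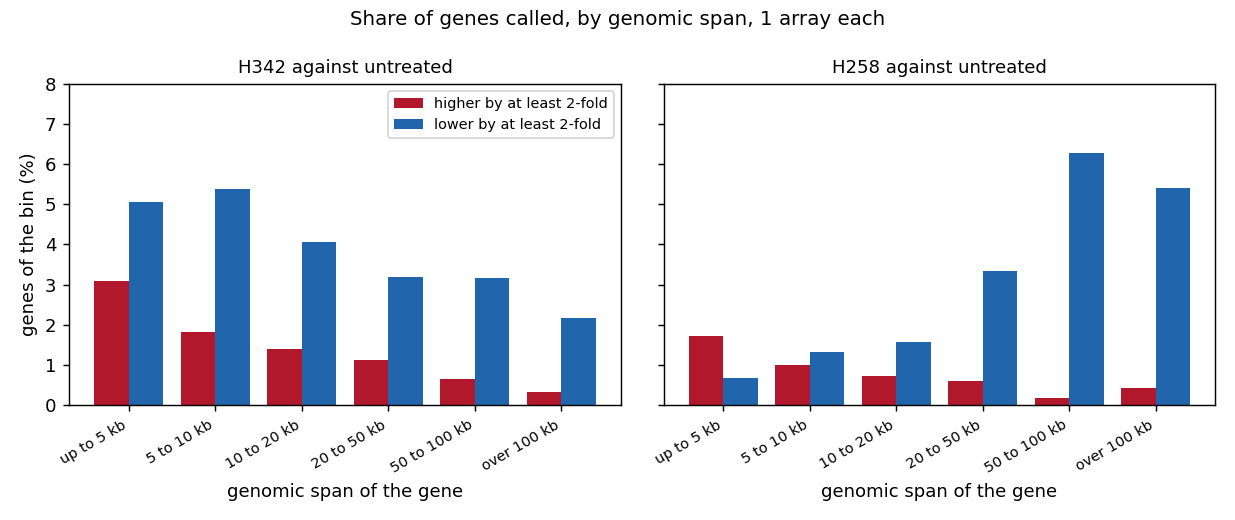
Percent of tested genes called higher and lower by at least 2-fold (vertical axis) in 6 classes of genomic span (horizontal axis), for H342 against untreated cells (left) and H258 against untreated cells (right), 1 array each. Under H342 the lower calls are 5.05% of the shortest class and 2.18% of the longest, whereas under H258 they are 0.684% and 5.4% in these classes.

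Several small noncoding RNAs were called higher, beside 1.25% of all tested genes. Of 7 tested genes of the list of small nuclear RNAs and RNA polymerase III products, 5 were called higher and 0 lower, with a median log2 difference of 1.40, against 0.03 over all genes. The list and its 5 higher calls include the ribosomal RNA RNA28SN5, which belongs to neither class. The calls of RN7SK, RNU6ATAC and RNA28SN5 were stable, and the median was 0.88 without background correction and 0.84 in the value table. RN7SK, which sequesters the transcription elongation kinase P-TEFb, had signals of 3167 under H342 and 616 in untreated cells (2.72), and its other probe had 1696 and 239.5 (3.75). RNU6ATAC and RNU11, RNAs of the minor spliceosome, differed by 1.64 and 1.14, and the major spliceosomal RNU2-1 by 1.40, but RNU11 and RNU2-1 stood at 0.84 and 0.72 in the value table. RN7SL1, the RNA of the signal recognition particle, is also made by RNA polymerase III and had 35193 under H342 and 39289 in untreated cells, a difference of -0.09. RNA28SN5, a copy of the 28S ribosomal RNA, had 18071 under H342 and 3985 in untreated cells (2.30). Ribosomal RNA is not polyadenylated and its copies share sequence, so its probe reports how much of this RNA entered the labeled material as well as its level. The part of that carry-over in the values of the small RNAs was not tested. The signals under H258 were 737 for RN7SK, 480 for RNU6ATAC and 5170 for RNA28SN5.

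No protein partner of RN7SK was called higher with it. Of 20 tested genes of 7SK and P-TEFb, 1 was called higher, RN7SK itself, and 2 lower, with a median of 0.06. MEPCE, the enzyme that caps 7SK RNA, had a signal of 704 under H342 and 1705 in untreated cells (-1.33). CCNT1, the cyclin of P-TEFb, had 655.5 under H342 and 1327 in untreated cells (-1.06), but the mean over its 2 probes was -0.55. HEXIM1, the inhibitor that 7SK brings to P-TEFb, differed by 0.52.

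Small nucleolar RNAs had calls in both directions, beside 1.25% higher and 3.61% lower of all tested genes. The list of small nucleolar and Cajal body RNAs had 8 tested members, of which 1 was called higher and 1 lower, with a median of -0.18. Grouped by symbol after their values were seen, the H/ACA class, which guides pseudouridylation of RNA, had 9 tested members, of which 0 were called higher and 5 lower (55.6%), 4 of them stable, with a median of -1.16 and of -0.87 in the value table. SNORA25 had a signal of 192 under H342 and 784 in untreated cells (-2.94), SNORA33 had 231 and 709 in the same order (-2.20), and SNORA62 had 238 and 645.5 (-1.96). The C/D class, which guides ribose methylation, had 29 tested members, of which 3 were called higher and 7 lower (24.1%), with a median of -0.48. Of these calls 2 higher and 1 lower were stable, and the median was -0.27 in the value table and -0.21 without background correction. SNORD13, unusual in being transcribed as a gene of its own, had 3536 under H342 and 1429 in untreated cells (1.496), and SNORD46 had 450 and 219 (1.76). SNORD31 had 237 under H342 and 619.5 in untreated cells (-1.89). SNORD14A, SNORD14C and SNORD14D were all called lower, but such copies share sequence and may share signal. The medians of the H/ACA and C/D classes under H258 were 0.23 and -0.07.

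Among the other stable calls furthest from untreated cells, several rest on a single probe or on copies that share sequence. RIMBP3 had a signal of 411 under H342 and was not detected in untreated cells, but its other probe had 154 and 166 (-0.12). GOLGA8B, a golgin of a multicopy family, had 1718 under H342 and 610 in untreated cells (1.79). The exchanger gene SLC24A1 had 337 and 171 (1.96), and the readthrough transcript JMJD7-PLA2G4B had 506 and 235 (1.80). On the lower side KYNU, an enzyme of tryptophan breakdown, had 187 under H342 and 829 in untreated cells (-3.11), with its other probe at -2.01. MARS2, the mitochondrial methionyl-tRNA synthetase, had 168 and 510 (-2.63), but its other probe had 178 and 185.5 (-0.01).

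**Figure D3:**
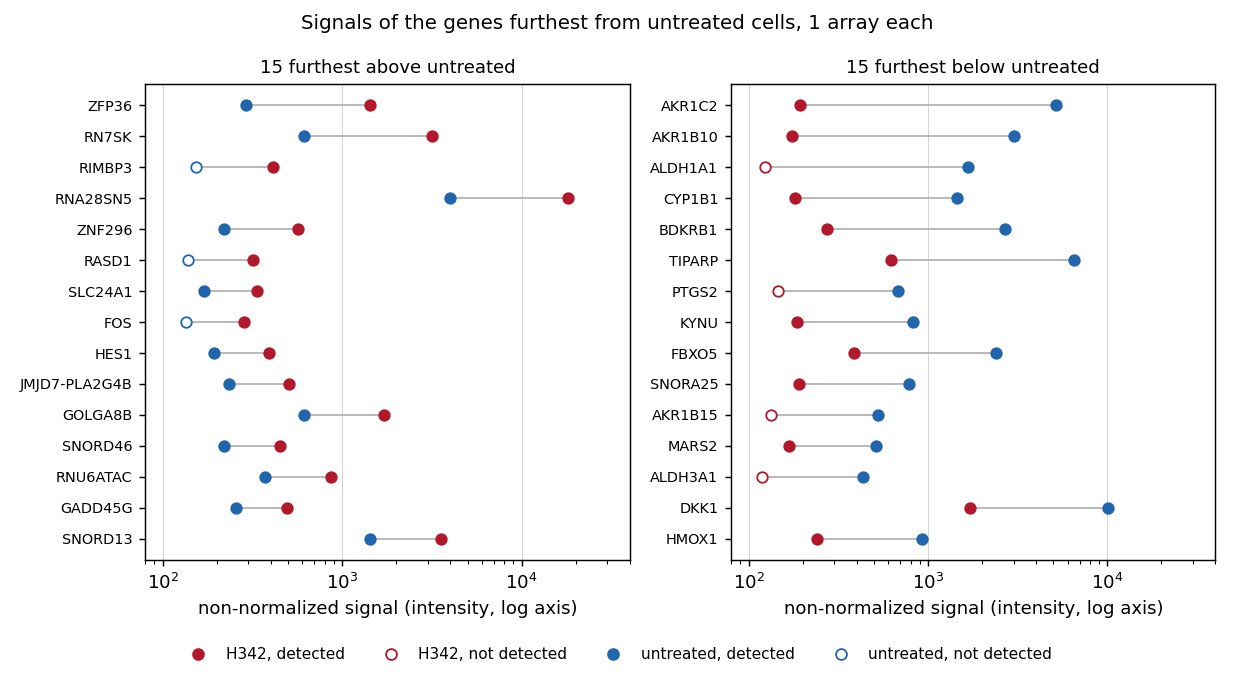
Non-normalized signal (horizontal, log axis) under H342 (red) and in untreated cells (blue) of the 15 highest and 15 lowest genes among the stable calls, 1 array each, with open symbols for a signal that was not detected. In the left panel ZFP36 and RN7SK stand at 1425 and 3167 under H342, and in the right panel AKR1C2 stands at 194 under H342 and 5158 in untreated cells.

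Immediate-early genes did not move as 1 group, and their counts stand beside 1.25% higher and 3.61% lower of all tested genes. Of 11 tested genes of AP-1, 3 were called higher and 1 lower, with a median of 0.25. Besides FOS, JUNB had a signal of 506 under H342 and 280 in untreated cells (1.34) and FOSB had 456 and 297.5 (1.002), while JUN, its main partner, had 1958 and 2056 (0.03). The AP-1 subunit FOSL2 had 166.5 under H342 and 245 in untreated cells (-1.06). Only FOS of these was a stable call. Of 20 tested genes of the EGR, KLF and IER list, 1 was called higher and 5 lower, with a median of -0.16. IER2 had 328 under H342 and 196 in untreated cells (1.45). IER3, which protects cells from death signals, had 2264 under H342 and 7734 in untreated cells (-1.74), the kinase gene SGK1 had 2489 and 8035 (-1.65) and IER5 had 427.5 and 1107 (-1.55). The Ras-related GTPase GEM had 273 under H342 and 835 in untreated cells (-2.05), and its 3 probes all lay at or below -1.07. EGR1 differed by 0.60, short of 2-fold.

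The GADD45 genes, small proteins that link stress to p38 and JNK kinases, were on the higher side. GADD45B had 1595 under H342 and 757 in untreated cells (1.31), GADD45G had 493 and 257.5 (1.51), and GADD45A had 13380 and 8329 (0.78). Of the 13 tested genes of their list 2 were called higher and 0 lower, with a median of -0.12. ZFP36 was the only 1 of 21 tested genes of AU-rich messenger RNA decay that was called, and the median of that list was -0.01. Its relative ZFP36L1 differed by -0.58.

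Feedback inhibitors of MAP kinase signaling lay mostly below untreated cells. Of 20 tested DUSP and Sprouty genes, 2 were called higher and 4 lower, and 15 lay below 0, with a median of -0.48. The shares over all tested genes were 1.25% higher and 3.61% lower. The receptor signaling inhibitor SPRY2 had a signal of 485 under H342 and 1290 in untreated cells (-1.56). SPRY4 and the ERK phosphatase gene DUSP6 were detected in untreated cells only, with differences of -1.51 and -1.40 against the lowest detected level, and of -0.81 and -0.86 in the value table. DUSP8, a phosphatase of stress kinases, was called higher at 1.44. All of these calls but SPRY2 were dim and were not stable.

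BMP signaling was among the lists with the most lower calls. BMP ligands signal through SMAD1, SMAD5 and SMAD9 to induce ID genes, which block basic helix-loop-helix factors, and the inhibitory SMADs, which close the loop. Of 21 tested genes 0 were called higher and 7 lower, 4 of them stable, with a median of -0.58. Over all tested genes 1.25% were called higher and 3.61% lower. The median was -0.43 in the value table and -0.30 with no detection filter. ID1 had a signal of 1485 under H342 and 4454 in untreated cells (-1.58), and ID3 had 6625 and 18838 (-1.44). The inhibitory SMAD6 had 832 under H342 and 2834 in untreated cells (-1.82), and SMAD7 had 231 and 543 (-1.72) with its other probe at -2.07. The effector SMAD9 had 175 and 313 (-1.48), and the antagonist NOG had 383 and 707 (-1.04). The antagonist GREM1 was detected in untreated cells only, and its difference against the lowest detected level was -0.96. In the value table SMAD9, NOG and GREM1 stood at -0.81, -0.775 and -0.54, short of 2-fold. On the H258 array ID1 had 8355 and ID3 had 27280, above untreated cells, and SMAD6 had 3420. The list median under H258 was 0.05. Of 13 tested genes of TGF-β signaling 0 were higher and 3 lower, namely the corepressors TGIF1 (-1.21) and SKIL (-1.03) and the inner nuclear membrane protein LEMD3 (-1.01), with a median of -0.05.

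Some inflammatory mediators were called lower. Of 18 tested genes 0 were called higher and 4 lower, 3 of them stable, beside 3.61% of all tested genes called lower. The list median was -0.57. The median was -0.26 with an undetected side set to the lowest detected level and -0.32 over the members detected on both arrays. BDKRB1, the inducible receptor for kinins, had a signal of 273 under H342 and 2691 in untreated cells (-3.895). PTGS2, the inducible cyclooxygenase, had 146 under H342, not detected, and 685 in untreated cells, so that its difference against the lowest detected level was -3.38, with -2.225 in the value table, and its other probe was at -1.54. IL11, a cytokine of the IL-6 family, was not detected under H342 and had 315 in untreated cells, a difference of -1.88 against the lowest detected level and of -1.33 in the value table. The chemokine gene CXCL2 was also detected in untreated cells only, and its call was not stable. The abundant chemokine genes CXCL8, with 3302 under H342 and 6591 in untreated cells (-0.93), and CCL2, with 4531 and 8520 (-0.85), were lower but fell short of a call. The cytokine gene IL6 had 6172 and 5175 (0.33). Of 16 tested genes of NF-κB signaling only TRAF6, an adaptor ubiquitin ligase, was called (lower), with a median of 0.11.

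The genes furthest below untreated cells encode enzymes that reduce or oxidize carbonyls and aldehydes. AKR1C2, a reductase of steroids and carbonyls, had a signal of 194 under H342 and 5158 in untreated cells (-5.83), and 1297 under H258. AKR1B10, an aldose reductase relative, had 175.5 under H342 and 3001 in untreated cells (-5.34). ALDH1A1, which makes retinoic acid from retinal, was not detected under H342 and had 1671 in untreated cells, a difference of -4.85 against the lowest detected level and of -3.71 in the value table, and both of its probes lay below -5. ALDH3A1, an aldehyde dehydrogenase, was not detected under H342 and had 436 in untreated cells. AKR1C3 had 4419 under H342 and 7818 in untreated cells (-0.74), and AKR1C4 had 1262 and 2131 (-0.73), but genes of these families are close copies and may share signal. Over the 23 tested genes of the list 1 was higher and 4 were lower, beside 1.25% and 3.61% of all tested genes. The list median was 0.04, so the change within the list was carried by these 4. AKR1B15, an aldo-keto reductase gene outside the list, was also a stable lower call. Its signal was 133 under H342, below the lowest detected signal, and 525.5 in untreated cells (-3.35, and -2.02 in the value table).

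Some other transcripts that epithelial tumor lines make in quantity were also lower. In a group of 22 genes put together after their values were seen, AKR1C2, AKR1B10, ALDH1A1 and ALDH3A1 included, 17 were tested. The counts, sums and median of this group follow from that choice and are a description only. All 17 were detected in untreated cells and 6 under H342, and 12 of 17 were called lower under H342 and 0 higher. Their signals summed to 18423 under H342 and 28812 in untreated cells. Neurotensin (NTS) had a signal of 108 under H342 and 358 in untreated cells, the calcium-binding S100P 121 and 251, fibrinogen FGB 123 and 276, the vitamin D hydroxylase CYP24A1 120.5 and 256, the surface protein CD24 109 and 267, and the glutathione peroxidase GPX2 131 and 349. None of these 6 was detected under H342. FGA, CPS1, SERPINA1 and UCHL1 of the same group differed by under 0.2. CEACAM6, PAEP, TM4SF4, TFF1 and LGSN were not tested because neither array detected them. The median over the 17 was -2.18, and -1.22 in the value table. On the H258 array the same group had 12 of 17 genes at least 2-fold below untreated cells. The part of a different cell content of the untreated sample in these differences was not tested.

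Targets of the aryl hydrocarbon receptor and of NRF2 shared a few calls with the genes above, namely ALDH3A1 of the receptor's list and GPX2 of the NRF2 list. The counts of both lists stand beside 1.25% higher and 3.61% lower of all tested genes. The receptor, AHR itself, had signals of 3249 under H342 and 3350 in untreated cells (0.07). Of 9 tested genes of its list 0 were called higher and 3 lower, with a median of -0.75. The median was -0.51 in the value table and -0.41 with an undetected side set to the lowest detected level. It was -2.05 over the members with a detection p under 0.01 on at least 1 array. CYP1B1, a cytochrome P450 that oxidizes estrogens and polycyclic compounds, had 181.5 under H342 and 1460 in untreated cells (-4.12), and 949 under H258. TIPARP, an ADP-ribosyltransferase that restrains the receptor, had 622.5 under H342 and 6526 in untreated cells (-3.59), and 5321 under H258. ALDH3A1 was the remaining call. CYP1A1, the classical target, and AHRR, the receptor's repressor, were detected in untreated cells only and near background. Of 25 tested NRF2 targets 1 was higher and 3 lower, with a median of -0.16. HMOX1, which breaks down heme, had 240 under H342 and 931 in untreated cells (-2.55), and 1005 under H258. GCLM, the modifier subunit of glutathione synthesis, had 1366 under H342 and 3175 in untreated cells (-1.20). ABCC3, an export pump for conjugates, stood on the other side with 3396 under H342 and 1447 in untreated cells (1.42). NQO1, often used as a readout of NRF2, had 11182 under H342 and 13209 in untreated cells (-0.14).

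**Figure D4:**
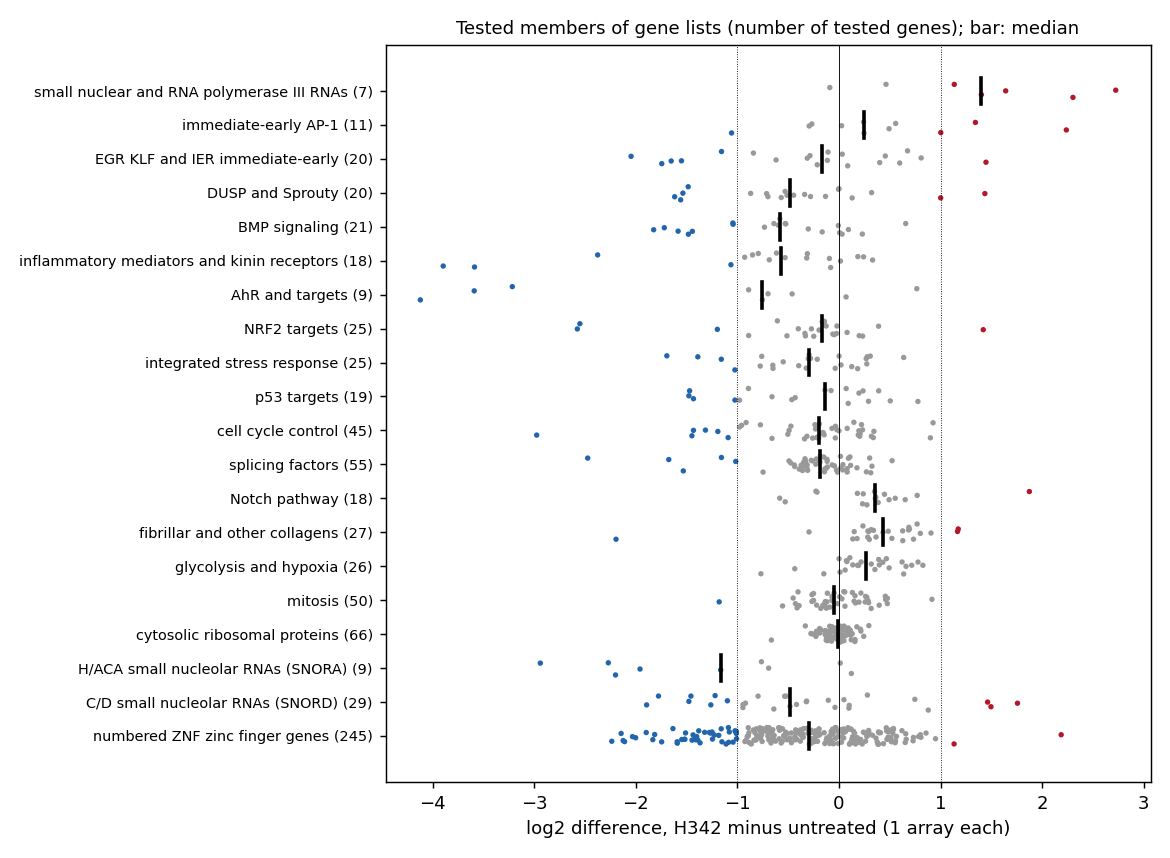
Log2 difference (H342 minus untreated, horizontal axis) of each tested member of 20 gene groups, with the number of tested genes in brackets, black bars at the medians, and red and blue points for genes at least 2-fold higher and lower. The list of small nuclear RNAs and RNA polymerase III products, which includes the ribosomal RNA RNA28SN5, has a median of 1.40. The H/ACA small nucleolar RNAs have a median of -1.16, while 66 cytosolic ribosomal protein genes all lie within 2-fold.

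A few regulators of survival and stress were called lower, and the counts below stand beside 3.61% of all tested genes called lower. MCL1, a short-lived inhibitor of apoptosis, had a signal of 758 under H342 and 2008 in untreated cells (-1.46), and its other probe had 392 and 1047 (-1.63). It was the only called gene of 18 tested BCL2 family members, whose median was 0.02. FADD, the adaptor of death receptors, had 1404 under H342 and 3061 in untreated cells (-1.10). It was the only call among 20 caspase and inhibitor of apoptosis genes, whose median was -0.03. Of 19 tested p53 targets 0 were higher and 4 lower, 2 of them stable, with a median of -0.14. The cyclin kinase inhibitor CDKN1A had 542 under H342 and 1348 in untreated cells (-1.43) and stood at 1926 under H258. The phosphatase PPM1D and the transcriptional regulator SERTAD1 differed by -1.47 and -1.48, while BAX differed by 0.24. Of 25 tested genes of the integrated stress response 0 were higher and 4 lower, with a median of -0.29. The call of DDIT3 was stable, while CHAC1, SESN2 and DNAJB9 stood at -0.92, -0.55 and -0.93 in the value table. DDIT3, a transcription factor of endoplasmic reticulum stress, had 604 under H342 and 1473 in untreated cells (-1.39) and 2503 under H258. CHAC1, a target of the same pathway that degrades glutathione, had 167 under H342 and 320 in untreated cells (-1.69). ATF3, another of its targets, differed by 0.24.

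Some regulators of the cell cycle were lower, while mitotic genes mostly stayed within 2-fold. The counts stand beside 3.61% of all tested genes called lower. Of 45 tested genes of cell cycle control 0 were higher and 6 lower, 5 of them stable, with a median of -0.20. FBXO5, the inhibitor of the anaphase-promoting complex, had a signal of 388.5 under H342 and 2392 in untreated cells (-2.975), and its other probe was at -2.18. CDC25A, the phosphatase that starts S phase, had 450 and 1019 (-1.31), E2F6 had 469 and 1168 (-1.45), E2F7 had 822 and 1833 (-1.19), and E2F3 had 1241 and 2651 (-1.09). Of 50 tested mitotic genes 0 were higher and 1 lower, the kinesin KIF18A (-1.18), with a median of -0.05, and CENPF was at 0.92. The same 50 genes had a median of -0.52 under H258, with 14 at least 2-fold lower. None of 48 tested genes of DNA replication, 45 of DNA repair and 34 of topoisomerases and helicases reached 2-fold under H342, and their medians were -0.10, 0.09 and 0.12.

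Among genes of RNA processing and transcription a few regulators were called, and their counts stand beside 3.61% of all tested genes called lower. Of 55 tested splicing factors 0 were higher and 5 lower, 3 of them stable, with 40 below 0 and a median of -0.19. RBM15, which brings the m6A methylase to RNA, had a signal of 421.5 under H342 and 1935 in untreated cells (-2.47). The kinases of SR proteins CLK4 and CLK1 differed by -1.68 and -1.02, the related kinase DYRK1A by -1.53, and LUC7L3 by -1.16. The other probes of CLK1 and LUC7L3 differed by -0.555 and -0.17. Among 53 tested genes of the general transcription machinery and Mediator, 0 were higher and 2 lower, GTF2B (-1.18) and MED26 (-1.12), neither of them stable, with a median of -0.22. The mitochondrial regulators PPRC1 (-1.52) and MTERF1 (-1.34) were the only calls among 31 genes of mitochondrial DNA and cytochrome oxidase assembly, in which TFAM was at -0.52 and COX19 at -0.90. None of 66 cytosolic ribosomal protein genes, 76 mitochondrial ribosomal protein genes, 59 nuclear-encoded respiratory chain genes and 51 nucleolar ribosome assembly genes reached 2-fold, with medians of -0.01, -0.11, -0.01 and -0.17.

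Calls differed between families of transcription factors. Of 34 tested basic helix-loop-helix genes and cofactors 1 was higher and 2 lower, of 20 nuclear receptors 0 were higher and 1 lower, and of 44 TEAD, ETS, STAT and other factors 0 were higher and 3 lower, with medians of 0.00, -0.09 and -0.00. The zinc finger families that follow were chosen after their values were seen, and their shares stand beside 3.61% of all genes called lower. Of 245 tested genes with a numbered ZNF symbol, mostly zinc finger factors, 2 (0.816%) were higher and 44 (18%) lower, with a median of -0.29, and 170 lay below 0. Under H258 the median was 0.04, and 3 were at least 2-fold higher and 15 lower. ZNF35 had a signal of 196 under H342 and 550 in untreated cells (-2.24), ZNF830 had 378 and 1357 (-2.14), ZNF668 had 355 and 1157 (-2.001), and ZNF217, an oncogene product that recruits corepressors, had 443 and 1369 (-1.83). Of the 44 only 11 were stable calls, and the family was dim, with a median signal of 211 under H342 and 269 in untreated cells. In the deposited value table its median was -0.20. ZNF296 went the other way, with 567 under H342 and 219 in untreated cells (2.19). Without this family 338 genes were lower. Of 26 tested ZBTB genes, a related family, 1 was higher and 6 lower (23.1%), 1 of the lower calls stable, with a median of -0.57. Of other families grouped by symbol, 195 tested SLC solute carriers had 4 higher and 4 lower calls (2.05%), and 129 TMEM genes had 2 higher and 5 lower calls (3.88%).

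Of other regulators, 27 tested forkhead and SOX genes had 1 higher and 3 lower calls, none of them stable, with SOX12 at 1.41 and FOXF1 at -1.63. These counts stand beside 1.25% higher and 3.61% lower of all tested genes. The homeobox list had 1 higher and 2 lower calls of 25, including ISL1, detected in untreated cells only, at -1.28 under H342 against the lowest detected level and -0.68 in the value table, while it stood at 406 under H258. CTCF, which organizes chromatin loops, had a signal of 428.5 under H342 and 797 in untreated cells (-1.01), a call that was not stable. The core histone gene H4C3, one of the brightest on the array, had 17792 under H342 and 48638 in untreated cells (-1.39), the only lower call among 31 histone genes, whose median was 0.02. The ubiquitin ligases SIAH1 (-1.59), FBXW7 (-1.16) and FBXO32 (-1.06) were lower with FBXO5 among 44 genes of the proteasome and ubiquitin ligases. The calls of FBXW7 and FBXO32 were not stable, and their other probes differed by -0.12 and -0.28. The Wnt inhibitor DKK1 had 1710 under H342 and 10027 in untreated cells (-2.555), and RND3, a GTPase that loosens stress fibers, had 2113 and 11931 (-2.48). Under H258 they stood between, at 3612 and 5530.

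Matrix, Notch and metabolic genes lay on the higher side, mostly within 2-fold. Their counts stand beside 1.25% higher and 3.61% lower of all tested genes. Of 27 tested collagen genes 2 were higher and 1 lower, and 25 lay above 0, with a median of 0.43. COL7A1, the anchoring fibril collagen, had a signal of 3666 under H342 and 1817 in untreated cells (1.17), while COL5A2 was not detected under H342 and had 353 in untreated cells, a difference of -2.13 against the lowest detected level and of -1.22 in the value table. Of 37 integrin, laminin and matrix glycoprotein genes 0 were higher and 1 lower, with a median of 0.33, LAMA5 at 0.85 and NID1 at 0.98. Of 18 Notch pathway genes only HES1 was called, and the median was 0.35, with JAG2 at 0.65 and NOTCH1 at 0.49. Glycolysis and hypoxia genes had no call of 26, but 23 lay above 0, with a median of 0.27, NDRG1 at 0.83 and the glucose transporter SLC2A1 at 0.78. Of 26 interferon-stimulated genes 1 was higher, XAF1 (1.14), and 1 lower, IFIT1 (-1.08), with a median of 0.37. Of 23 ABC pumps and cation transporters 3 were higher and 0 lower, ABCC3, SLC67A1 (1.08) and ABCA3 (1.04), with a median of 0.11. Golgins and long coiled-coil proteins had a median of 0.19 and no call of 28, against -0.71 and 9 lower under H258. The other lists of this paragraph also had medians above 0 under H258. These were 0.26 for collagens, 0.34 for Notch and 0.17 for glycolysis and hypoxia. For matrix glycoproteins, interferon-stimulated genes and pumps they were 0.14, 0.08 and 0.26. Both comparisons share the single untreated array.

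The same genes had smaller differences on the H258 array. The 132 genes called higher under H342 had a median of 1.15 on the log2 scale there and 0.51 under H258, and 12 of them were at least 2-fold higher under H258. The 382 genes called lower had -1.32 under H342 and -0.28 under H258, and 62 of them were at least 2-fold lower under H258. The genes were chosen by their H342 values and both comparisons use the same untreated array, so these medians are a description and do not measure a shared or a separate response.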

How the data were processed

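RNA of untreated, H258-treated and H342-treated H2373 cells had been labeled and hybridized to 3 Illumina BeadChip arrays, 1 per condition. The authors deposited signal intensities averaged over beads by BeadStudio 3.1.3.0 without background subtraction. The deposited detection p-value sets each probe against negative control beads. A further table of linear intensities, normalized across arrays by the authors in a way not given in the sources used here, served as an alternative. Array versions are named differently in the file and the text, and the earlier version's annotation was used.

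Background was corrected with nec of limma 3.58.1 (R 4.3.3, offset 16, controls inferred through detection p-values), followed by quantile normalization over the 3 arrays and log2. Of 48798 probes, 28093 had 1 gene symbol. The brightest probe represented a gene. Genes were kept when either the H342 or the untreated array detected them at p under 0.05. A fold with an undetected side was set against that array's lowest detected level after background correction, which is no lower limit on the fold of the uncorrected signals. Groups came from the sample labels. Tables and figures were made with Python 3.11.15, pandas 2.3.3 and matplotlib 3.10.9, and the pipeline was tested on simulated data. Promoters and spans came from RefSeq (GRCh38.p14), which had a promoter for 8723 of the tested genes; the first entry of a gene was used.

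With 1 array per condition, the number of arrays limits the precision and no test was run. The genes and lists were chosen with earlier results of these data known. Named were the 15 highest and 15 lowest stable calls, up to 8 called members of each list, the 2 members furthest from 0 in each direction, and genes measured by RT-PCR in the study. Other named genes, the families grouped by symbol and the group of epithelial tumor transcripts were chosen after their values were seen. Alternatives were median scaling, cyclic loess, no normalization, no background correction, an offset of 50, normalization without the H258 array, the deposited value table, other detection filters, folds against the lowest detected level, folds of 1.5 and 3, mean probes and probe counts. Some genes that the study names are not reported here.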

Additional observations from a re-analysis of the deposited data

Results flagged for a closer look

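Probes with no single gene symbol were left out of the comparison, and some of them carried a signal. Of 3012 such probes detected on at least 1 of the 2 arrays, 52 lay at least 2-fold above and 65 at least 2-fold below untreated cells under H342. Of these, 3 higher and 17 lower probes reached 2-fold again both without background correction and in the value table. What these probes measure was not analysed here.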

How the results depend on the processing

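No paired analysis was possible because each condition has 1 array. The number of genes called higher under H342, 132, became 54 with an offset of 50, 26 without background correction, 23 in the deposited value table, 87 without normalization between arrays, 841 at 1.5-fold, 15 at 3-fold and 218 when probes were counted. The number called lower, 382, became 238 with an offset of 50, 146 without background correction, 140 in the deposited value table, 1041 at 1.5-fold and 109 at 3-fold. The cause was not tested, apart from the threshold of the fold and the unit counted. Under the remaining alternatives both counts stayed within 1.5 times, from 92 to 131 higher (132 with no detection filter) and from 295 to 538 lower. Of 125 called genes named by the rule, none changed sign under any alternative, 119 kept 2-fold under cyclic loess and 65 in the value table. Signal near background limits what can be measured, and sizes of dim genes rest on the background correction.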
